A study of Gallus gallus with 3 samples.

Results

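The let-7 family was followed member by member in the leg muscle of chicken embryos, with dual-colour miRNA arrays of tissue taken on day 14 of incubation. Members were taken by probe name: gga-let-7a, gga-let-7b, gga-let-7c, gga-let-7d, gga-let-7f, gga-let-7g, gga-let-7i, gga-let-7j and gga-let-7k, here written without the species prefix. Of these 9 names, 8 had probes, out of 542 miRNAs on the array, and no probe carried the name gga-let-7j. All 8 were among the 127 miRNAs tested for a strain difference, those with a mean signal over 32 across the 6 dye channels. Dwarf embryos came from a recessive White Rock strain that carries a deletion in GHR, the growth hormone receptor gene, at the end of its coding part and into its 3′ UTR. Normal embryos came from a recessive White Rock strain. The embryos were female, and skin and bone had been removed from the legs, according to the study's methods. Each array held 1 dwarf pool and 1 normal pool, with RNA of 3 embryos in a pool. The dwarf pool was labelled with Cy5 on arrays 1 and 3 and with Cy3 on array 2, and the normal pool with the other dye. The 3 arrays are the replicates (n = 3), and so few arrays limit the precision of every mean.

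The let-7 miRNAs are short regulatory RNAs that guide Argonaute proteins to messenger RNAs through the seed, the bases at positions 2 to 8 counted from the 5′ end. In many animals mature let-7 accumulates as cells leave the proliferating embryonic state and differentiate, and the RNA-binding protein LIN28 blocks the processing of its precursors. Known targets in mammals include RAS genes and HMGA2, which promote growth. The members arise from separate precursors but have nearly the same mature sequence, so their probes must separate RNAs that differ by as little as 1 base.

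The target sequences on the array are given below to show the shared seed, which is in capitals, with the RNA written 5′ to 3′.
let-7a: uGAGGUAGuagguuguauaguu
let-7b: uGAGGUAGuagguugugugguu
let-7c: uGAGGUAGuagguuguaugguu
let-7d: aGAGGUAGuggguugcauagu
let-7f: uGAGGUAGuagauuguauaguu
let-7g: uGAGGUAGuaguuuguacagu
let-7i: uGAGGUAGuaguuugugcugu
let-7k: uGAGGUAGuagauugaauaguu
All 8 had the seed GAGGUAG, and no other miRNA among the 542 on the array had it at these positions. The members were 22 bases long, except let-7d, let-7g and let-7i with 21. Outside the family the nearest array sequence, gga-miR-1703, was 8 bases away from its closest member. For this the sequences were aligned at the first base without gaps, and a difference in length was counted. The counts between members given below leave length out.

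The bases that separate the members lay at position 1 and from position 10 onwards. They are written with the base of let-7a first, the position from the 5′ end, and then the base of the member. Let-7c differed from let-7a by A19G alone, and let-7f by G12A alone. Let-7b had A17G and A19G, and let-7k had G12A and U16A. Let-7g had G12U and U18C. Let-7d had U1A, A10G and U16C, and let-7i had G12U, A17G, U18C and A19U. Among the 28 pairs of members the number of differing bases ran from 1 to 7, and 4 pairs differed by 1 base. Besides let-7a with let-7c and let-7a with let-7f, these were let-7b with let-7c (G17A, written with the base of let-7b first) and let-7f with let-7k (U16A, written with the base of let-7f first).

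Those 4 pairs are shown with the bases that differ from let-7a in capitals, since the comparison of probe signals turns on them.
let-7a: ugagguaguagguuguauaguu
let-7c: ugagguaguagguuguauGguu
let-7b: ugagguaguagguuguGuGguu
let-7f: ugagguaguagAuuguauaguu
let-7k: ugagguaguagAuugAauaguu
The GC content of the targets was 36.4% in let-7a, 40.9% in let-7c, 45.5% in let-7b, and 31.8% in both let-7f and let-7k. It was 47.6% in let-7d, 42.9% in let-7i and 38.1% in let-7g.

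In the RefSeq gene table of assembly GRCg7b, 11 precursors were found for the 9 named members, because let-7a has precursors at several places. Precursors let-7a-1, let-7d and let-7f lay within 10 kb of each other. The precursors of let-7b and let-7a-3 were neighbours inside PPARA, which codes for a nuclear receptor of lipid metabolism. Those of let-7j and let-7k were neighbours inside MTCH1, a mitochondrial carrier gene. The let-7c precursor lay beside that of miR-99a, and let-7a-2 beside that of miR-100. The let-7g precursor lay within WDR82 and the let-7i precursor within MON2. Because the mature let-7a sequence is the same from each of its precursors, its probe cannot tell them apart.

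Each member had 6 spots on each array. Signals are given in intensity units after subtraction of the median empty spot of the channel, which read 105 to 170.2 in Cy3 and 36.1 to 57.8 in Cy5. Over the tested miRNAs the median was 301, 599 and 642 for dwarf pools on the 3 arrays in turn, against 938, 181.8 and 2600.1 for normal pools, and the lower of the pair was the Cy5 pool each time. Signals and shares given as such are before normalization, also where dwarf and normal pools stand side by side, and log2 ratios are after normalization within the array. Of 8 listed muscle miRNAs, 7 had probes and 6 were over 32 in all pools, with summed signals of 14209 to 46692 in dwarf pools and 30235 to 69836 in normal pools. Of the 6 tested, 1 had a mean log2 ratio of dwarf over normal above 0, against 37.0% of all tested miRNAs. The median of their means was -0.18. Of 6 listed epithelial miRNAs all had a mean log2 ratio above 0, higher in dwarf embryos, against that same 37.0%. None passed an adjusted p of 0.05 in limma, where the share over all tested miRNAs was also 0%. Their summed signals were 28208 to 50581 in dwarf pools and 276 to 19562 in normal pools, and 1 of the 6 was over 32 in all pools. Of the red blood cell pair, gga-miR-451 averaged 1.28 on the log2 scale, dwarf over normal (SE 0.37, limma adjusted p = 0.324), and gga-miR-144 was not over 32 in any pool. Of 4 white blood cell miRNAs, none was over 32 in all pools. The part of these lists in the let-7 values was not tested. A bulk pool cannot tell fewer cells of a type from less RNA per cell.

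Let-7a gave the highest signal of the family in all 6 pools. Its signal was 5714, 7178 and 12345 in the dwarf pools, given here and below in array order, against 8291, 6252 and 17915 in the normal pools. Its rank by signal among the 127 tested miRNAs was 9 to 18 over the pools. Let-7c read 3513, 5405 and 8819 in dwarf pools, against 6248, 4205 and 15657 in normal pools. Let-7f read 4246, 5238 and 9293 in dwarf pools, against 5718, 3541 and 15713 in normal pools. These 3 members formed the bright end of the family. Like every other member, each was brighter in the Cy3 pool on all 3 arrays before normalization, which was the normal pool on arrays 1 and 3 and the dwarf pool on array 2.

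Let-7b came next in brightness. It read 1410.3, 3200.4 and 3864 in dwarf pools, against 3124, 2552 and 8784 in normal pools, and ranked between 25 and 35 among the tested miRNAs. Let-7g read 975, 2022 and 2834 in dwarf pools, against 1654, 885 and 8138 in normal pools. Let-7i read 993, 2242 and 2248 in dwarf pools, against 1372, 1009 and 6783 in normal pools. Let-7g and let-7i, which share G12U and U18C, lay close to each other in every pool, with let-7i at 79.3% to 114% of let-7g.

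The dim end held let-7k and let-7d. Let-7k read 299.8, 111 and 760.1 in dwarf pools, against 537, 36.0 and 3301 in normal pools. Let-7d read 95.7, 207 and 180.4 in dwarf pools, against 219, 108 and 729 in normal pools. The lowest value of the family was let-7k in the normal pool of array 2, just above the limit of 32. All 8 members were over 32 in all 6 pools, as were 15.7% of all 542 miRNAs. Within each member the ranges of the dwarf and normal pools overlapped. These signals are before normalization and went with dye and array, so the overlap was not read as a strain result.

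**Figure D1:**
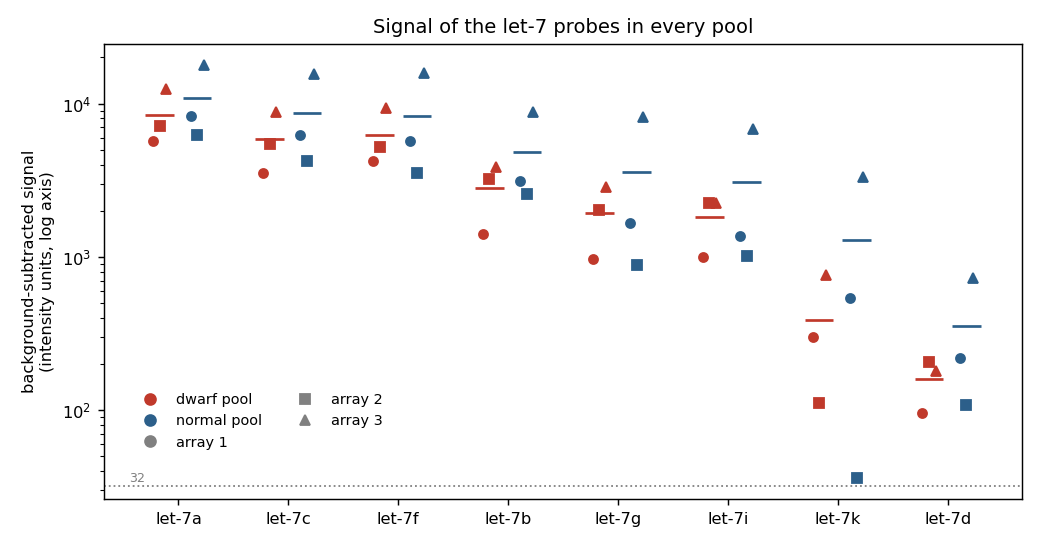
Signal of each let-7 probe after subtraction of the median empty spot (log axis, intensity units) in 3 dwarf pools (red, left) and 3 normal pools (blue, right), with marker shapes for arrays and lines for means. Let-7a is highest in every pool, and on array 2 let-7k reads 111 in the dwarf pool and 36.0 in the normal pool, where let-7f reads 5238 and 3541.

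The order of the mean log2 signals over the 6 pools was let-7a, let-7c, let-7f, let-7b, let-7g, let-7i, let-7k and let-7d. Probes differ in how well they bind, so this is an order of probe signals and not of molecules. Of the 7 neighbouring pairs in this order, 4 kept their order in all 6 pools. Let-7a exceeded let-7c by 0.46 ± 0.17 on the log2 scale (SD over 6 pools). Let-7f exceeded let-7b by 0.96 ± 0.40, and let-7b exceeded let-7g by 0.70 ± 0.48, each in 6 of 6 pools. Let-7i exceeded let-7k by 2.47 ± 1.65 in 6 of 6 pools, with a range from 1.04 to 4.81.

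The other neighbours did not differ beyond their spread. Let-7c and let-7f differed by 0.01 ± 0.18, with let-7c brighter in 3 of 6 pools. Let-7g and let-7i differed by 0.08 ± 0.23, with let-7g brighter in 3 of 6 pools. Let-7k exceeded let-7d by 0.79 ± 1.62 and in 4 of 6 pools, and both pools in which it did not were those of array 2. The 6 pools shared 3 arrays, so pools of one array are not independent.

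Signal differences between probes were set beside the number of differing bases, and they were smallest in the median for pairs that differed by 1 base. The median size of the log2 signal difference was 0.72 for the 4 pairs with 1 differing base, and 1.54, 2.11 and 1.98 for those with 2, 3 and 4. It was 3.34 for the 3 pairs with 5 differing bases and 3.26 for the pair with 7. Let-7c read 61.5%, 75.3% and 71.4% of let-7a in the 3 dwarf pools, against 75.4%, 67.3% and 87.4% in the normal pools. Let-7f read 74.3%, 73.0% and 75.3% of let-7a in dwarf pools, against 69.0%, 56.6% and 87.7% in normal pools. Both 1-base neighbours of let-7a thus stayed below it in every pool. Let-7b read 40.1%, 59.2% and 43.8% of let-7c in dwarf pools, against no more than 60.7% in any normal pool, with let-7c at 165% to 249% of let-7b over all 6.

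The fourth pair stood far wider apart. Let-7k read 7.06%, 2.11% and 8.18% of let-7f in dwarf pools, against 9.39%, 1.02% and 21.0% in normal pools. The targets of this pair differ by U16A alone, and their probe signals differed by 4.21 on the log2 scale on average. The share was lowest in both pools of array 2, which carry different dyes. Across the 28 pairs the size of the signal difference and the number of differing bases had a Pearson r of 0.33 and a Spearman rho of 0.40. Pairs share members, so these are given as a description. Cross-binding of one member to the probe of another was not tested.

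**Figure D2:**
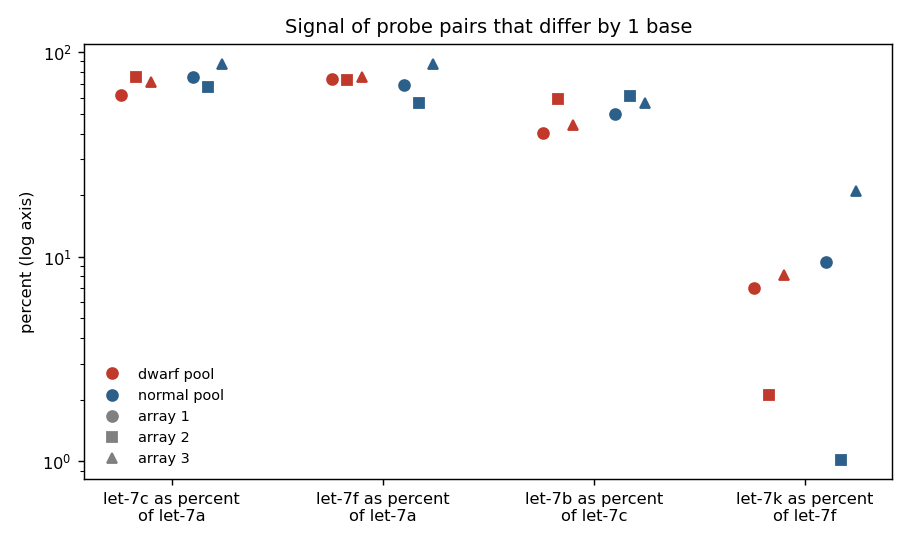
Signal of the dimmer probe as a percent of the brighter one (log axis) for the 4 pairs of let-7 members that differ by 1 base, in dwarf pools (red, left) and normal pools (blue, right), with marker shapes for arrays. Let-7c and let-7f lie between 56.6% and 87.7% of let-7a, and let-7k lies between 1.02% and 21.0% of let-7f.

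Before normalization, the 8 members together took 7.74%, 6.86% and 11.5% of all miRNA signal in the 3 dwarf pools, against 7.66%, 9.38% and 11.0% in the normal pools. The means were 8.70% ± 2.46 in dwarf pools and 9.36% ± 1.69 in normal pools (SD, n = 3 each). The difference within arrays, dwarf minus normal, was -0.66 ± 1.62 percentage points, with a two-sided exact sign-flip permutation p of 1. With 3 arrays this test cannot give a p under 0.25.

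Shares of the summed let-7 signal showed how the family was made up in each pool. Let-7a took 30.6% ± 2.55 in dwarf pools and 29.1% ± 5.33 in normal pools (SD, n = 3 each). Let-7c took 21.1% ± 0.746 in dwarf pools and 22.0% ± 1.45 in normal pools. Let-7f took 24.6%, 20.5% and 23.0% in dwarf pools, against 21.1%, 19.1% and 20.4% in normal pools. Its share was higher in the dwarf pool on 3 of 3 arrays, by 2.54 ± 1.08 percentage points. The dyes were turned on array 2 alone, and the part of dye in these shares was not tested.

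Let-7b showed the opposite direction. It took 8.18%, 12.5% and 9.58% in the 3 dwarf pools, against 11.5%, 13.7% and 11.4% in the normal pools. Its share was lower in the dwarf pool on 3 of 3 arrays, and the difference was -2.13 ± 1.08 percentage points. The dwarf and normal ranges of let-7b overlapped, as did those of let-7f. The exact two-sided sign-flip permutation p was 0.25 for both, the smallest that 3 arrays can give, and 0.75 after Benjamini-Hochberg adjustment over the 8 members. These 2 members were singled out after their values were seen, and the 8 shares add up to the whole, so a higher share of one lowers the others. The remaining 6 members had shares that were not of one direction on all arrays. With normalised channel signals the difference was -1.89 ± 0.91 for let-7b and 2.05 ± 1.11 for let-7f.

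**Figure D3:**
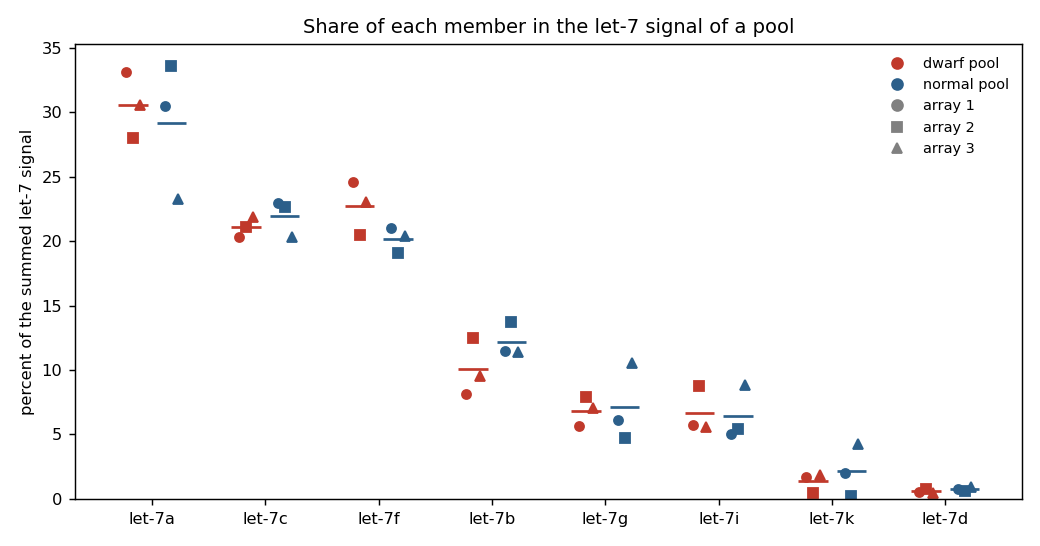
Share of each member in the summed let-7 signal of a pool, in percent, for 3 dwarf pools (red, left) and 3 normal pools (blue, right), with marker shapes for arrays and lines for means. Array by array, let-7f lies higher in the dwarf pool and let-7b lower, with differences of 2.54 and -2.13 percentage points on average.

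Strain differences were read from log2 ratios of dwarf over normal after loess normalization within each array. The samples are titled normal over dwarf, and the direction used here comes from the dye labels. No member passed an adjusted p of 0.05 in limma, where the share over all 127 tested miRNAs was also 0%. None had an unadjusted p under 0.05 either, against 11.0% of all tested miRNAs. A mean above 0, higher in dwarf embryos, was seen in 4 of 8 members, against 37.0% of all tested miRNAs, and in 0 of 8 without array 1 or without normalization, against 43.3% and 10.2% in those settings. A ratio of one sign on all 3 arrays was seen in 0 of 8 members, against 32.3% of all tested miRNAs. The share of ratios above 0 went with the array, with 7, 2 and 4 of 8 members higher in dwarf embryos on arrays 1, 2 and 3, against 44.9%, 51.2% and 39.4% of all tested miRNAs.

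The bright members had their lowest ratio on array 2. In array order, let-7a had ratios of 0.32, -0.62 and 0.48, with a mean of 0.06 (SE 0.27, limma adjusted p = 0.973). Its normalised signal averaged 9351 in dwarf pools and 8852 in normal pools, and the 95% interval of the log2 ratio ran from -0.72 to 0.83. Let-7c had ratios of 0.06, -0.52 and 0.24, with a mean of -0.07 (SE 0.20, limma adjusted p = 0.973) and an interval from -0.64 to 0.50. Let-7f had ratios of 0.46, -0.33 and 0.31, with a mean of 0.15 (SE 0.21, limma adjusted p = 0.929) and an interval from -0.45 to 0.74. For all 3 the dwarf pool was the higher on arrays 1 and 3 and the lower on array 2.

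Let-7b had ratios of -0.16, -0.63 and 0.06, with a mean of -0.24 (SE 0.19, limma adjusted p = 0.754) and an interval from -0.77 to 0.29. Against the median of the other 7 members, let-7b stood at -0.44, -0.29 and 0.20 on arrays 1, 2 and 3, a mean of -0.18 ± 0.34 (SD, n = 3). On array 1 it was below the lowest other member, which was let-7d at 0.05. On array 2 it was also the lowest, but let-7a was only 0.0017 higher. Without array 2 the mean was -0.05 for let-7b. Its normalised signal averaged 3054 ± 524 in dwarf pools and 3634 ± 790 in normal pools (SD, n = 3 each). These ranges of mean ± SD overlapped, but they leave out the pairing of pools by array, which the log2 ratios use.

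Let-7g and let-7i had their lowest ratio on array 3. Let-7g had ratios of 0.26, 0.10 and -0.22, with a mean of 0.05 (SE 0.15, limma adjusted p = 0.973) and an interval from -0.39 to 0.48. Let-7i had ratios of 0.54, 0.08 and -0.25, with a mean of 0.13 (SE 0.20, limma adjusted p = 0.945) and an interval from -0.44 to 0.70. Let-7k shared this order with 0.28, -0.06 and -0.53, a mean of -0.10 (SE 0.21, limma adjusted p = 0.972) and an interval from -0.68 to 0.48. Let-7d had 0.05, -0.39 and -0.14, with a mean of -0.16 (SE 0.15, limma adjusted p = 0.824), an interval from -0.58 to 0.26, and a mean of -0.05 without array 2. The 8 means lay between -0.24 and 0.15, and every interval included 0.

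**Figure D4:**
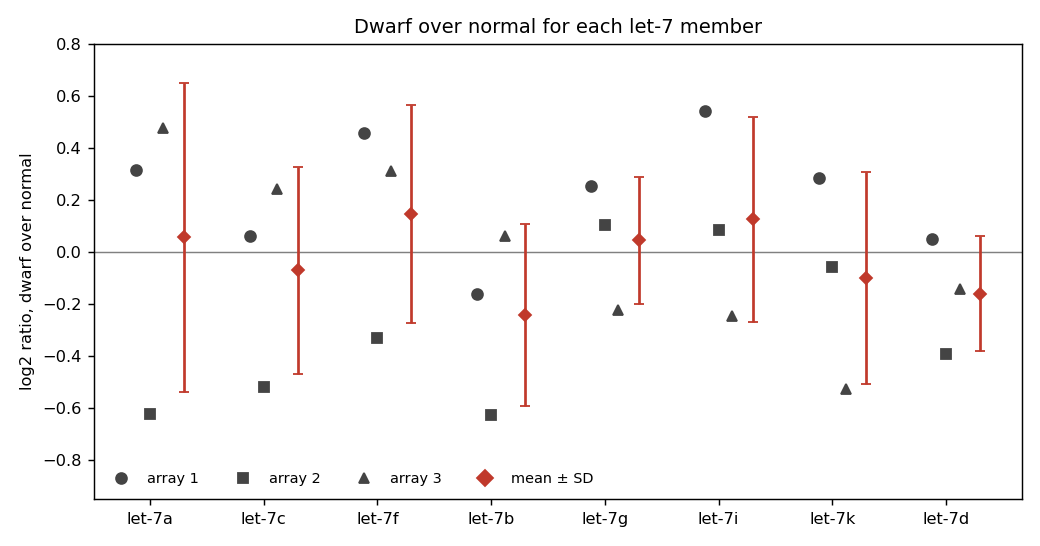
Log2 ratio of dwarf over normal after loess normalization for each let-7 member on arrays 1, 2 and 3 (dark markers), with the mean ± SD of the 3 arrays (red diamonds). No member has its 3 points on one side of 0, and the points of let-7a, let-7c, let-7f, let-7b and let-7d are lowest on array 2.

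The spread was larger between arrays than between spots. The SD of the 6 spots of a member on an array was 0.05 to 0.16 on the log2 scale, with a median of 0.12. The SD of a member across the 3 arrays was 0.22 to 0.59, with a median of 0.40. In 18 of 24 combinations of member and array, all 6 spots had a ratio of one sign. The same count was not made for the other tested miRNAs, so it cannot be read as a trait of the family. The 6 spots of an array also hold the same 2 pools. Across the 8 members, Pearson r between arrays was 0.59 for arrays 1 and 2, -0.07 for arrays 1 and 3, and -0.75 for arrays 2 and 3. These are across members that share sequence, and are given as a description.

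Arranged by dye instead of strain, the normalised ratios of the 3 brightest members were of one sign, toward Cy5. Before normalization every member read higher in Cy3 on all 3 arrays, as did the median of all tested miRNAs. Let-7a was 0.32, 0.62 and 0.48 higher in Cy5 than in Cy3 on arrays 1, 2 and 3, a mean of 0.47. Let-7c was 0.06, 0.52 and 0.24 higher in Cy5, a mean of 0.28. Let-7f was 0.46, 0.33 and 0.31 higher in Cy5, a mean of 0.37. A Cy5 excess on all 3 arrays was thus found in 3 of 8 members, against 10.2% of all tested miRNAs, and a Cy3 excess on all 3 in 0 of 8, against 20.5%. Of the miRNAs outside the family named below, miR-125b, miR-1560*, miR-130b and miR-762 also had a Cy5 excess on every array. miR-99a and miR-100 had a Cy3 excess on every array, slight for miR-100 on array 1, and miR-187, miR-199* and miR-199b were mixed. In limma the unadjusted p was 0.0248 for let-7a and 0.0377 for let-7f, with an adjusted p of 0.460 for both. Of all tested miRNAs, 9.45% had an unadjusted limma p under 0.05 for Cy5 over Cy3, and 0% an adjusted one. In the log2 ratios deposited by the authors, made with their own background subtraction and LOWESS, 5 of 8 members had a Cy5 excess on all 3 arrays, the same 3 with let-7b and let-7d, against 9.45% of the tested miRNAs. With the main normalization the limma adjusted p was 0.611 for let-7c. Let-7a, let-7c and let-7f differ from each other by 1 or 2 bases, so they are not independent cases. Dwarf RNA was in Cy5 on arrays 1 and 3 only, so the mean over 3 arrays would not cancel a difference between dyes, if there was one. Whether the Cy5 excess came from the dyes or from differences between the pools was not tested.

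**Figure D5:**
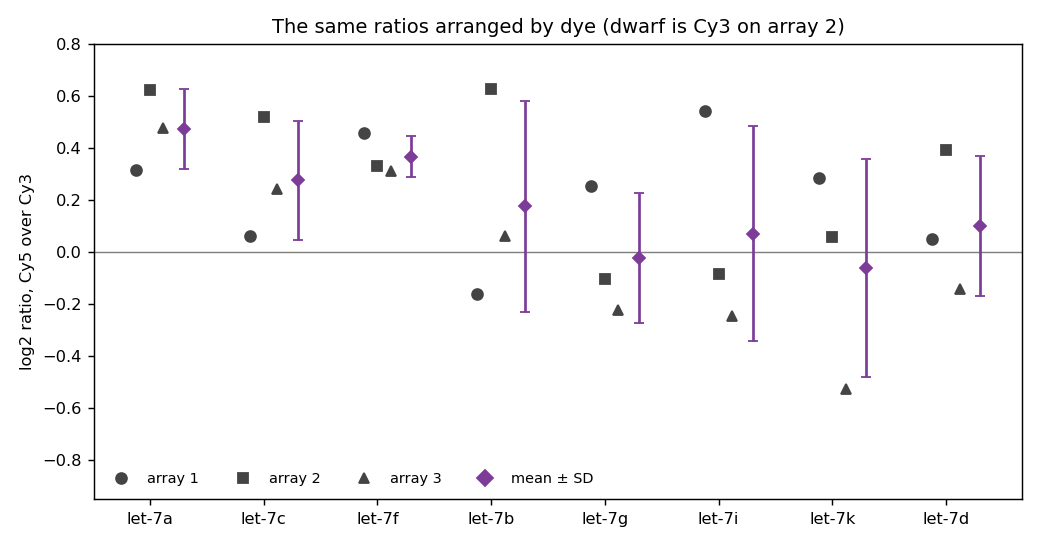
The ratios of each let-7 member arranged as log2 Cy5 over Cy3 on arrays 1, 2 and 3 (dark markers), with the mean ± SD (purple diamonds); the sign of array 2 is turned relative to the plot of dwarf over normal. The points of let-7a, let-7c and let-7f are above 0 on all 3 arrays, with means of 0.47, 0.28 and 0.37.

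Differences between members within one array were compared next, because the pools and the hybridisation are then the same. Let-7b was below its 1-base neighbour let-7c by 0.22, 0.11 and 0.18 in the log2 ratio on arrays 1, 2 and 3, so that let-7b minus let-7c averaged -0.17 ± 0.06 (SD, n = 3). This mean was -0.04 with loess on the tested miRNAs alone and -0.08 in the authors' ratios. Let-7b minus let-7f was -0.62, -0.29 and -0.25, with a mean of -0.39 ± 0.20. Let-7c minus let-7f was -0.40, -0.19 and -0.07, with a mean of -0.22 ± 0.17. The order let-7b, let-7c, let-7f, with let-7b lowest, was the same on all 3 arrays with the main normalization, on 2 of 3 with loess on the tested miRNAs alone and on 1 of 3 in the authors' ratios. There let-7b lay above let-7c on arrays 1 and 3. Let-7d minus let-7f and let-7i minus let-7k also kept one sign, as did let-7a minus let-7b, whose difference on array 2 was only 0.0017, less than the SD of 0.08 and 0.07 between the spots of let-7a and let-7b there. Altogether 6 of 28 pairs of members did so, which is 21.4%, against 36.7% of all pairs of tested miRNAs. These pairs share members, and none of the differences was chosen before its values were seen.

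Likeness in sequence was set beside likeness in ratio. The measure was the root mean square difference of 2 members' ratios over the 3 arrays. Its median was 0.21 for the 4 pairs that differed by 1 base, and 0.39, 0.44 and 0.46 for those that differed by 2, 3 and 4 bases. For the 3 pairs with 5 differing bases it was 0.23, and for the pair with 7 it was 0.40. Over the 28 pairs the Pearson r was 0.06 and the Spearman rho 0.08. The closest pair was let-7g with let-7i at 0.17, and the widest was let-7a with let-7k at 0.67. Of the 1-base pairs, let-7b with let-7c had 0.18, let-7a with let-7c 0.21, let-7a with let-7f 0.21, and let-7f with let-7k 0.52.

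Members with neighbouring precursors were set side by side. Let-7d and let-7f, which lie within 10 kb, had mean ratios of -0.16 and 0.15. Let-7d minus let-7f was -0.41, -0.06 and -0.45 in array order, with a mean of -0.31 ± 0.22 (SD, n = 3). The same sign on all 3 arrays was seen in 36.7% of all pairs of tested miRNAs. On array 2 the difference was smaller than the SD of 0.12 between the spots of let-7d there. Let-7a also has precursors near those of let-7b, let-7d and let-7f, but its probe cannot tell its precursors apart. Of the listed miRNAs that are transcribed in clusters with let-7, none passed the adjusted threshold, where the share over all tested miRNAs was also 0%. miR-99a, beside let-7c, had ratios of -0.23, 0.76 and -0.65, with a mean of -0.04 (SE 0.32). miR-100, beside let-7a-2, had 0.00, 0.54 and -0.44 to 2 decimals, with a mean of 0.03 (SE 0.23). On array 2, where let-7a and let-7c had their lowest ratios, miR-99a and miR-100 had their highest. miR-125b, known as a partner in the same clusters, had 0.09, -0.08 and 0.22, with a mean of 0.08 (SE 0.13). Its lowest ratio was on array 2, as for let-7a and let-7c.

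Among the 119 tested miRNAs outside the family, the ratios nearest to the per-array median of the family were those of miR-187, miR-1560* and miR-130b. Their root mean square differences over the 3 arrays were 0.12, 0.14 and 0.17, where the median over the non-members was 0.47. Nearest to let-7b were miR-199*, miR-199b and miR-762, at 0.12, 0.19 and 0.20, with a median of 0.50. miR-199*, the closest, had ratios of -0.21, -0.44 and 0.12. With 3 arrays such likeness rests on 3 values per miRNA.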

How the data were processed

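RNA of 3 dwarf and 3 normal pools was measured on 3 dual-colour arrays. The scanner files deposited by the authors hold linear intensities, the mean density of a spot in each channel, with no background column and with commas inside the numbers, which were removed. A table of log2 ratios per miRNA was deposited too, for which the authors subtracted background and applied LOWESS. Its centring is not stated. It followed dwarf over normal when set against the scanner ratios (Pearson r of 0.900, 0.766 and 0.765 over 127 miRNAs), its medians were 0.04, 0.03 and -0.13, and it served as an alternative only.

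Here normexp with an offset of 50 was applied to the foreground of all spots, followed by loess within arrays, in which controls had weight 0, and the 6 spots of a miRNA were averaged. The offset pulls ratios of dim probes toward 0. The sign was turned on array 2. miRNAs with a mean signal over 32 were tested with limma 3.58.1 in R 4.3.3, lmFit and eBayes, with Benjamini-Hochberg adjustment over 127 miRNAs. The fit was run on simulated data, with noise drawn independently for each miRNA and array. Such data hold no dependence between miRNAs and no dye difference, so nothing about the let-7 results is drawn from them. Normalised signals were taken after loess and Aquantile. Pools sharing an array deviated together, with correlations of 0.613, 0.234 and 0.307, and taking ratios within arrays makes use of that pairing. Sequences are the target sequences of the deposited array files.

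Named miRNAs were all members, the cluster partners miR-99a, miR-100 and miR-125b, and the 3 tested miRNAs nearest to the family median and the 3 nearest to let-7b. Marker miRNAs and the nearest non-member sequence were named besides. Members and lists were chosen with earlier results of these data known. Alternatives covered background, offset, normalization, filter, spot summary, dye coefficient, separate channels, an unpaired t-test and leaving out each array.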

Additional observations from a re-analysis of the deposited data

How the results depend on the processing

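The count of members past an adjusted p of 0.05 was 0 in every limma setting. These included separate channels with no replicate block, where the pairing of pools by array is dropped. An unpaired t-test on the normalised channel signals also gave 0 members, both after Benjamini-Hochberg adjustment and unadjusted at the methods' threshold of 0.01. Over all tested miRNAs the limma count past an adjusted p of 0.05 was 2 with median centring, 3 with a dye coefficient and 0 in the other settings. No member had an unadjusted p under 0.05 in any of 14 settings, but 18 mean ratios changed sign. Let-7b (-0.66 to -0.05) and let-7d (-0.66 to -0.05) kept theirs, but both were at -0.05 without array 2. Without normalization the median of all tested miRNAs moved to -0.50, against -0.05 with loess. In that setting let-7a was -0.29, let-7f -0.21, let-7g -0.37 and let-7i -0.31, the family median was -0.40, and 0 members were higher in dwarf embryos, against 10.2% of all tested miRNAs. That share was 52.8% with median centring and 53.5% with loess on tested miRNAs.

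Let-7a was -0.0090 with plain subtraction, -0.049 in the authors' ratios and -0.11 with a dye coefficient. The dye coefficient gave -0.34 for let-7b, -0.18 for let-7c, -0.22 for let-7d and 0.03 for let-7f. It gave 0.06 for let-7g, 0.12 for let-7i and -0.09 for let-7k. Let-7k was 0.058 with plain subtraction, 0.068 with loess on tested miRNAs and 0.0060 in the authors' ratios. Let-7c was 0.084 with median centring, where 1 of 8 members had one sign on all arrays, against 26.0% of all tested miRNAs. The family median in that setting was 0.12.

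Leaving out 1 array gave -0.15 to 0.40 for let-7a, -0.39 to -0.05 for let-7b, -0.27 to -0.05 for let-7d, -0.23 to 0.15 for let-7c, -0.010 to 0.38 for let-7f, -0.060 to 0.18 for let-7g, -0.081 to 0.31 for let-7i and -0.29 to 0.11 for let-7k. It gave 0 to 5 of 8 members higher in dwarf embryos, against 37.0% to 46.5% of all tested miRNAs, 2 to 3 of 8 with one sign on the arrays left, against 44.1% to 63.0%, a family median of -0.11 to 0.08 and a 1-base difference of 0.21 to 0.22. Without array 1, 0 members were higher in dwarf embryos.

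The 1-base pairs' median ratio difference was 0.18 with plain subtraction, 0.20 with an offset of 16, 0.26 with median centring or no normalization, 0.16 with loess on tested miRNAs and 0.17 in the authors' ratios. Let-7b minus let-7c was -0.04 with loess on tested miRNAs and -0.08 in the authors' ratios. It and let-7b minus let-7f stayed negative in all 10 settings, which were chosen after seeing the data. Not all of these settings were separate checks. Both differences were negative on every array with the main normalization, so leaving out an array could not change their sign. Median centring and no normalization gave identical values, because a shift of a whole array cancels within a pair. The causes were not tested.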
